A study of Rattus norvegicus with 12 samples.

Results

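RNA-seq of rat (Rattus norvegicus) motor cortex was examined for 8 genes that mark astrocytes or their reactive state: Gfap (ENSRNOG00000002919), Vim (ENSRNOG00000018087), Aqp4 (ENSRNOG00000016043), S100b (ENSRNOG00000001295), Slc1a2 (ENSRNOG00000005479), Slc1a3 (ENSRNOG00000016163), Glul (ENSRNOG00000049560) and Apoe (ENSRNOG00000018454). They were chosen by a fixed list of Ensembl identifiers, and all 8 identifiers were among the 16534 features of the deposited table. The gene symbols are those given with that list, and they were not checked, since no table used here pairs Ensembl identifiers with symbols. Libraries came from 12 rats in 4 groups of 3: stimulated PD rats (stim on PD), PD rats, stimulated control rats (stim on ctrl) and control rats (ctrl). PD stands for a model of Parkinson's disease made with 6-OHDA, a toxin taken up by catecholamine neurons, and both groups given it are called lesioned. Stimulation, as the design text describes it, was delivered wirelessly at 130 Hz by a graphene array placed in primary motor cortex, for 1 hour a day over 2 weeks. That text names 3 groups where the labels give 4, so it is not stated whether stimulated controls had the same schedule. The side and site of the toxin, a sham operation or an unpowered array in unstimulated rats, and the strain, sex and age of the rats are not stated.

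Astrocytes clear glutamate from synapses, buffer potassium and water, supply neurons with glutamine and cholesterol, and react to injury by building up their cytoskeleton. Gfap and Vim encode intermediate filament proteins, and a rise of both is the classical sign of a reactive astrocyte. Slc1a2 (GLT-1) and Slc1a3 (GLAST) encode the main glial glutamate transporters, and Glul encodes glutamine synthetase, which turns the captured glutamate into glutamine. Aqp4 encodes the water channel of the endfeet that astrocytes place on blood vessels, S100b a calcium-binding protein, and Apoe the main lipid carrier apolipoprotein of the brain. Several of these genes are not private to astrocytes: Vim is also made by vascular and meningeal cells, Apoe by microglia, and S100b and Glul by oligodendrocytes. Markers of those cells could not be matched to identifiers, so their levels beside the 8 genes were not analysed here.

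The promoters of the filament genes are shown because these 2 genes had the lowest estimates of the 8 in lesioned rats over both pairs. Each window runs over 300 bases around the annotated start, most of them before it, and is taken from RefSeq on the assembly GRCr8, which is not the assembly of the deposited table. Capitals mark matches, on either strand, to the CCAAT box. They also mark the TATA box, searched as TATAAA, and the GC box, which was searched on both strands with the letters GGGCGG. The motif of STAT factors, TTCNNNGAA, was looked for on both strands as well. So was the motif of AP-1 factors, with the letters TGANTCA. No match overlapped another in these windows. Gfap lies at chr10:88361612-88361911 on the minus strand and Vim at chr17:81577011-81577310 on the plus strand.
Gfap: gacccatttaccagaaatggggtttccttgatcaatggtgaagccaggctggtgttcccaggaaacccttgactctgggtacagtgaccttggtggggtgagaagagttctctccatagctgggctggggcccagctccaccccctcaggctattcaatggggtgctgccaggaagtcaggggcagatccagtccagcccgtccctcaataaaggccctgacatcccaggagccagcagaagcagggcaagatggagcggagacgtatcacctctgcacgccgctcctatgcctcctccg
Vim: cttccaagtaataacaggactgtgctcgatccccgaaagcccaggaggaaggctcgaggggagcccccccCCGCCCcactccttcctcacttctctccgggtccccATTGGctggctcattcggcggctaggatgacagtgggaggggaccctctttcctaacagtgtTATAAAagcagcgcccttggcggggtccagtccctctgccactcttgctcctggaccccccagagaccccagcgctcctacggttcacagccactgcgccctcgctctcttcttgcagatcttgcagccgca
Vim held a GC box at -180, a CCAAT box at -144 and a TATA box at -82, counted from the annotated start. Gfap held none of the 5 motifs in this window. Of 33469 promoter windows of the same length, 33.1% held the GC box, 37.5% the CCAAT box, 14.2% the TATA box, 8.87% the STAT motif and 7.33% the AP-1 motif. These are matches of letters only.

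Libraries held 42905441 to 62082830 counted reads, and values are CPM, the reads of a feature scaled to a common library total. The lowest value of any of the 8 genes was 23.2 CPM, or 1254 reads, so counting error was at most 2.82% of a value. Between rats of a group the coefficient of variation ran from 2.94% for Slc1a3 in PD rats to 85.8% for Gfap in stimulated PD rats. Some rats stood at 1 end of their group for most of the 8 genes. Stimulated PD rat 3 was the lowest of its group for 8 of 8 genes, control rat 3 was the lowest of its group for 7, and stimulated control rat 3 was the highest of its group for 7. The share of all features for which these rats were lowest or highest was not computed. Whether the pattern is particular to the 8 genes was therefore not tested. Fold changes are on the log2(CPM + 0.5) scale from limma, fitted on the 14985 features that averaged 0.5 CPM or more, all 8 genes among them, with p-values two-sided and Benjamini-Hochberg adjusted over all of them; an adjusted p under 0.05 is called changed. In tissue RNA, fewer astrocytes and less RNA per astrocyte cannot be told apart. Nor can either be told from a different share of the other cells that make Vim, Apoe, S100b and Glul.

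Lesioned rats were set against unlesioned ones, to ask how the toxin model bears on these genes. As deposited, 8 of 8 genes had a negative estimate in PD against control rats, where 64.9% of all features did. In stimulated PD against stimulated control rats it was also 8 of 8, where 63.7% of all features did. The mean of both pairs, below 0 for 66.1% of all features, is then below 0 for the 8 genes by construction and adds no result. With both pairs averaged, Vim, Gfap, Apoe and Glul fell, by 4.84-fold, 2.63-fold, 2.02-fold and 1.25-fold. That is 4 of 8 genes lower, while 18% of all features tested were called lower and 23% in either direction. Of all calls over both pairs, 78.3% were lower as deposited and 51.9% with TMM scaling factors, which set libraries to a common typical gene. With these factors S100b and Slc1a3 had positive estimates in PD against control rats, at 0.073 and 0.031. For 0 of 8 genes did all 6 lesioned rats lie below all 6 unlesioned rats, as they did for 6.88% of all features. Aqp4, S100b, Slc1a2 and Slc1a3 did not pass the test. A rise of the filament genes was not seen in lesioned rats.

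**Figure D1:**
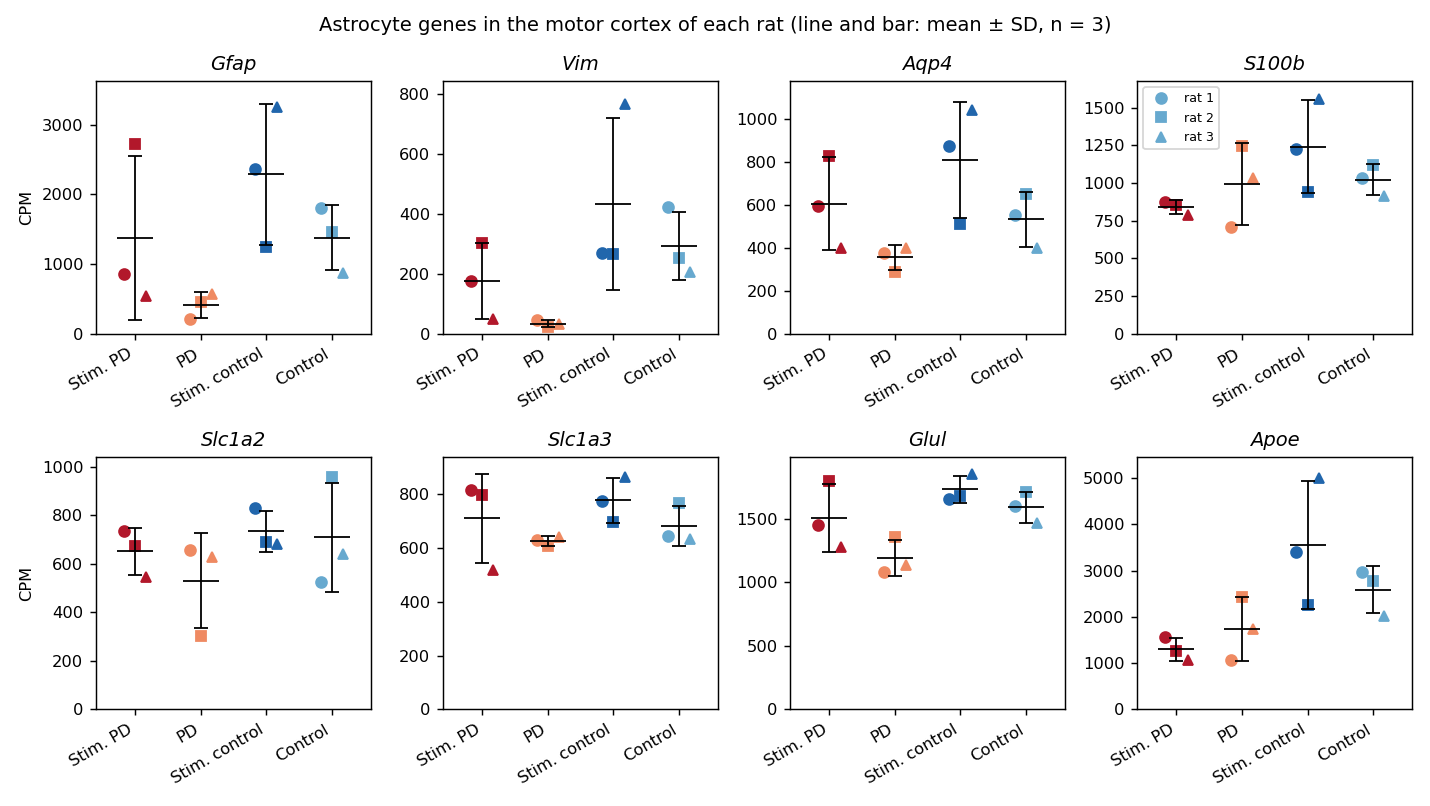
CPM of the 8 genes in each rat, with 1 panel per gene, groups along the x axis and a marker shape for the rat number; the horizontal line and bar give the mean ± SD of 3 rats. Vim lay between 23.2 and 44.6 CPM in PD rats and between 205 and 421 CPM in controls, while Slc1a3 lay between 606 and 642 CPM in PD rats and between 634 and 767 CPM in controls.

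Vim gave the largest difference of the 8 genes. It stood at 44.6, 23.2 and 32.9 CPM in PD rats, against 421, 253 and 205 CPM in control rats. All PD rats lay far below all controls, and 23.3% of all features also had no overlap in this direction. Vim averaged 33.6 ± 10.7 CPM in PD rats and 293 ± 114 CPM in control rats (SD, n = 3 each), an 8.51-fold lower level (log2 fold change -3.09, SE 0.59, limma adjusted p = 0.0226). Only 0.12% of features had a lower estimate in this comparison. Vim was the 1 gene of 8 called between PD and control rats, where 4.1% of all features were called lower and 4.38% in either direction. The call was lost without PD rat 2 (limma adjusted p = 0.0756) and without control rat 1 or 2 (limma adjusted p = 0.123 and 0.0689), with estimates of -2.85, -2.79 and -3.16. Without those rats, 0.574%, 0.0267% and 0.347% of all features were called in either direction.

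Among stimulated rats Vim was again lower on average, with wide spread. Its levels were 174, 304 and 49.4 CPM in stimulated PD rats, against 270, 266 and 767 CPM in stimulated control rats. The groups overlapped, because stimulated PD rat 2 exceeded stimulated control rats 1 and 2. The difference of -1.46 (SE 0.59, limma adjusted p = 0.147) did not pass the test. Of the 8 genes, 0 were called by limma in this pair, 0 by edgeR and 1 by DESeq2, and 3 had an unadjusted p under 0.05. Among all features limma called 1.45%, edgeR 0.1% and DESeq2 13.5%, and 26.3% had such a p by limma. Over both pairs Vim fell (estimate -2.28, 95% interval -3.19 to -1.36, limma adjusted p = 0.00673), and it passed with each of the 12 libraries left out in turn (limma adjusted p of 0.00481 to 0.0217).

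Gfap, the other filament gene, was also lower in lesioned rats, again with wide spread. It measured 202, 458 and 569 CPM in PD rats, against 1806, 1459 and 877 CPM in control rats. The highest PD rat was below the lowest control, so the groups did not overlap, as for 23.3% of all features in this direction. The mean was 409.8 ± 188 CPM in PD and 1381 ± 469 CPM in control rats (SD, n = 3 each; log2 fold change -1.82, SE 0.57, limma adjusted p = 0.0845), so Gfap missed the threshold in this pair. With only these 2 groups fitted, limma gave an adjusted p of 0.0449, and without stimulated PD rat 2, which enters only the spread, 0.0405. All features were called at 4.12% and 5.51% in these fits. Gfap thus passed in 1 of 12 fits with a library left out, where the limma adjusted p reached 0.264. Among 12 other settings it passed in 1 (adjusted p by limma, edgeR or DESeq2 up to 0.126).

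Stimulated PD rats had 862, 2722 and 537 CPM of Gfap, against 2367, 1242 and 3262 CPM in stimulated control rats. Stimulated PD rat 2 was above stimulated control rats 1 and 2, and its 2 companions were below all stimulated controls. The difference was -0.98 (SE 0.57, limma adjusted p = 0.298). Over both pairs Gfap fell, with an estimate of -1.40 (95% interval -2.28 to -0.51, limma adjusted p = 0.0301). This call was lost by edgeR (adjusted p = 0.0541) and by limma when any of 7 libraries was left out: stimulated PD rat 1 or 3 (0.0678 and 0.0666), PD rat 1 (0.0598), stimulated control rat 1 or 3 (0.0613 and 0.0777), and control rat 1 or 2 (0.0744 and 0.0648).

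Apoe, the lipid carrier, was lower in both pairs of means. It stood at 1563, 1262 and 1065 CPM in stimulated PD rats, against 3398, 2247 and 5004 CPM in stimulated control rats. Each stimulated PD rat was below each stimulated control, as for 27.1% of all features in this pair. The log2 fold change was -1.39 (SE 0.33, limma adjusted p = 0.0539), just short of the threshold. It passed when features under a mean of 5 CPM were left out (limma adjusted p = 0.0488), by DESeq2 (adjusted p = 0.00137), after quantile normalization (limma, 0.0441), with only these 2 groups fitted (limma, 0.034), and by limma without PD rat 1 (0.0183), PD rat 2 (0.024) or stimulated control rat 2 (0.028). Calls over all features were more frequent in the same fits, at 2.49% with the filter, 13.5% by DESeq2, 4.94% after quantile normalization, 14.4% with only these 2 groups, and 12.5%, 15.1% and 5.79% without those 3 rats, against 1.45%. Apoe thus passed in 3 of 12 fits with a library left out, where the limma adjusted p reached 0.251. Among 12 other settings it passed in 4 (adjusted p by limma, edgeR or DESeq2 up to 0.0909).

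Unstimulated PD rats had 1056, 2429 and 1735 CPM of Apoe, against 2979, 2764 and 2012 CPM in control rats. PD rat 2 lay within the control range and the other PD rats below it (log2 fold change -0.63, SE 0.33, limma adjusted p = 0.263). Over both pairs Apoe fell, with an estimate of -1.01 (95% interval -1.52 to -0.51, limma adjusted p = 0.0125). This call held with each library left out in turn (limma adjusted p of 0.00735 to 0.0357).

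Of the genes of glutamate uptake, the enzyme Glul was the only one called. Glul measured 1084, 1355 and 1136 CPM in PD rats, against 1602, 1710 and 1464 CPM in control rats. These groups did not overlap, as for 23.3% of all features in this direction. In stimulated PD rats Glul measured 1451, 1798 and 1275 CPM, against 1658, 1684 and 1855 CPM in stimulated control rats. There stimulated PD rat 2 exceeded 2 of the 3 stimulated controls. The log2 fold changes were -0.42 (SE 0.14, limma adjusted p = 0.105) without stimulation and -0.21 (SE 0.14, limma adjusted p = 0.366) with it.

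The average over both pairs was -0.32 (95% interval -0.54 to -0.09, limma adjusted p = 0.0431), close to the threshold. The Glul call was lost with TMM factors (estimate -0.19, limma adjusted p = 0.215), by edgeR and DESeq2 (adjusted p = 0.206 and 0.175), and when any library but stimulated PD rat 2 or PD rat 2 was left out (limma adjusted p of 0.0528 to 0.102). Glul also has processed copies in rodent genomes, and how multiply mapped reads were counted is not stated.

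Neither glutamate transporter passed in either lesion pair or over both pairs. Slc1a2 stood at 657, 304 and 628 CPM in PD rats, against 527, 960.0 and 640.4 CPM in control rats, with PD rat 2 at less than any other rat of the study. Its values in stimulated PD rats were 734, 675 and 545 CPM, against 831, 691 and 682 CPM in stimulated control rats. Both pairs overlapped, and their average was -0.32 (95% interval -0.75 to 0.12, limma adjusted p = 0.267).

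Slc1a3 had the estimate nearest to 0 over both pairs. It measured 630.3, 606 and 642 CPM in PD rats, against 644, 767 and 634 CPM in control rats. Stimulated PD rats had 816, 798 and 519 CPM, against 775, 697 and 863 CPM in stimulated control rats. The average difference was -0.14 (95% interval -0.39 to 0.12, limma adjusted p = 0.419), and with TMM factors -0.0059. This interval excludes a fall as large as that of Gfap, Vim or Apoe over both pairs, while a change of about the size of the Glul estimate lies inside it.

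Aqp4, the endfoot water channel, was lower on average without passing. PD rats had 376, 286 and 399.7 CPM, against 551, 647 and 396 CPM in control rats, so that PD rat 3 was just above control rat 3. Stimulated PD rats had 591, 827 and 396 CPM, against 873, 509 and 1039.9 CPM in stimulated control rats. The average over both pairs was -0.50 (95% interval -0.96 to -0.03, limma adjusted p = 0.114). Without stimulated control rat 2 it was -0.65 and passed (limma adjusted p = 0.0353). That was 1 of 12 fits with a library left out, where the limma adjusted p reached 0.249, and 0 of 11 other settings passed.

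S100b overlapped between groups in the unstimulated pair but not in the stimulated pair. In PD rats it stood at 704, 1245 and 1032 CPM, against 1033, 1117 and 917 CPM in control rats, a wide overlap. In stimulated PD rats it stood at 875, 856 and 789 CPM, against 1227, 941 and 1554 CPM in stimulated control rats. These groups did not overlap, as for 27.1% of all features in this direction. The log2 fold changes were -0.07 (SE 0.21, limma adjusted p = 0.862) and -0.53 (SE 0.21, limma adjusted p = 0.141), and the average was -0.30 (95% interval -0.63 to 0.02, limma adjusted p = 0.156). The difference between the pairs, tested as the interaction below, was -0.46 (SE 0.30, limma adjusted p = 0.834) and did not pass. The sign of the PD estimate turned with TMM factors (0.073), and so did that of Slc1a3 in the same pair (-0.12 as deposited and 0.031 with TMM factors).

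**Figure D2:**
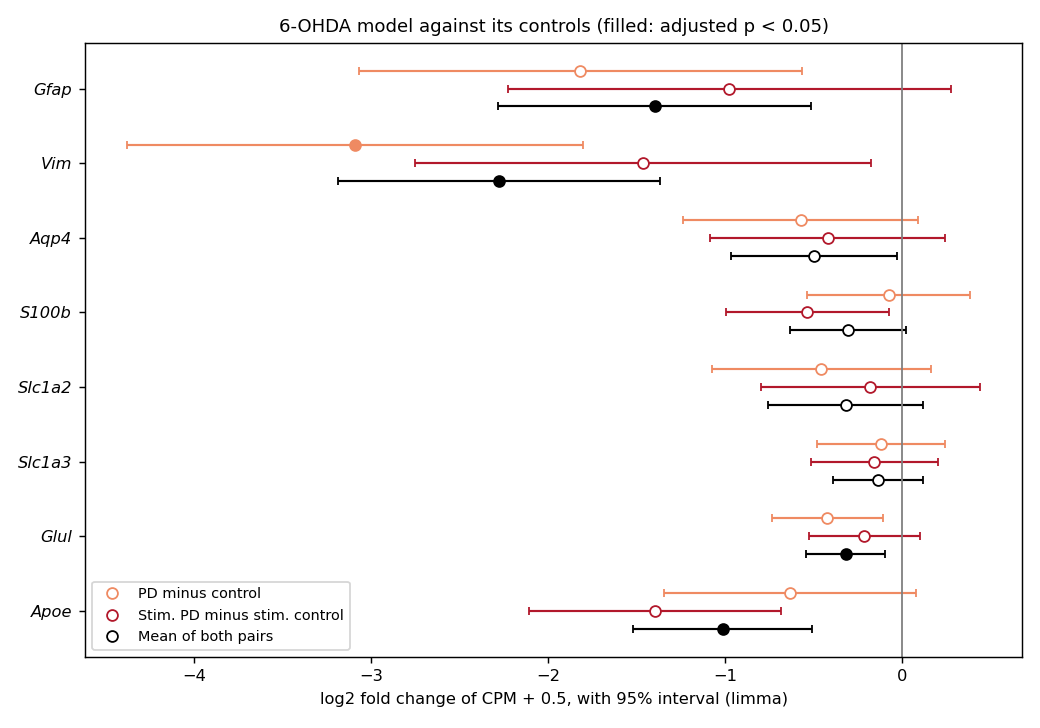
Log2 fold change with its 95% interval (x axis) of each gene (y axis) in PD against control rats, in stimulated PD against stimulated control rats and for the mean of both pairs; a filled point passed the test. For the mean of both pairs the points of Gfap, Vim, Glul and Apoe are filled, at -1.40, -2.28, -0.32 and -1.01, and the 8 points of each comparison are left of 0.

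As a set, the 8 genes had a median log2 fold change of -0.51 in PD against control rats, -0.48 in stimulated PD against stimulated control rats and -0.41 over both pairs. The medians of all features were -0.11, -0.12 and -0.12. With TMM factors, which centre the typical feature by construction, the median of all features over both pairs was 0.0017, and Vim, Gfap and Apoe were then at -2.15, -1.27 and -0.88 and still passed by limma (adjusted p = 0.00692, 0.0353 and 0.0192). Together the 8 genes took 0.716% ± 0.204 of reads in stimulated PD, 0.588% ± 0.101 in PD, 1.16% ± 0.338 in stimulated control and 0.880% ± 0.143 in control rats (SD, n = 3 each). No test is attached to these sums, because the genes were chosen as a set.

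Stimulated PD rats were then set against PD rats. Whether PD rats carried an array is not stated, so stimulation and implantation cannot be told apart in this comparison. The estimates of the filament and endfoot genes were higher in stimulated PD rats, but 0 of 8 genes passed by limma or edgeR and 1 by DESeq2, which called 6.05% of all features, and 4 of 8 had an unadjusted p under 0.05. Across all features limma called 0 of 14985 (0%) here, with 17.4% at an unadjusted p under 0.05. Estimates were below 0 for 2 of 8 genes and for 40.3% of all features. These PD libraries are the same ones that stand in the comparison with controls, so opposite signs in the 2 comparisons are no independent result.

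Vim had the largest estimate. Stimulated PD rats, with 174, 304 and 49.4 CPM, lay above PD rats, with 44.6, 23.2 and 32.9 CPM, without overlap, as did 9.98% of all features in this direction. Stimulated PD rat 3 exceeded the highest PD rat by little. The log2 fold change was 2.07 (SE 0.59, 95% interval 0.78 to 3.36, limma adjusted p = 0.21). Vim passed by DESeq2 (adjusted p = 0.012), and by limma without stimulated PD rat 3 (estimate 2.81, adjusted p = 0.0203) or PD rat 1 (estimate 2.30, adjusted p = 0.0393). Those 3 fits called 6.05%, 2.18% and 19.6% of all features, against 0% as reported. Vim thus passed in 2 of 12 fits with a library left out, where the limma adjusted p reached 0.581. Among 12 other settings it passed in 1 (adjusted p by limma, edgeR or DESeq2 up to 0.444).

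Gfap stood at 862, 2722 and 537 CPM in stimulated PD rats, against 202, 458 and 569 CPM in PD rats. Stimulated PD rat 3 was below PD rat 3, so the groups overlapped (log2 fold change 1.52, SE 0.57, limma adjusted p = 0.258). The mean of 1374 ± 1179 CPM in stimulated PD rats rests largely on rat 2 (SD, n = 3). Aqp4 had an estimate of 0.72 (SE 0.30, limma adjusted p = 0.271) and Glul of 0.33 (SE 0.14, limma adjusted p = 0.278). Slc1a2 and Slc1a3 had estimates of 0.37 and 0.15, with limma adjusted p of 0.451 and 0.587. Apoe and S100b had negative estimates instead, of -0.36 (SE 0.33, limma adjusted p = 0.518) and -0.20 (SE 0.21, limma adjusted p = 0.571).

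Stimulated control rats had higher estimates than control rats for 8 of 8 genes, and none passed. Of all features, 41% had an estimate below 0. Whether control rats carried an array is not stated either, so stimulation and implantation cannot be told apart here. By limma 0 of 8 genes were called and 0 of 8 had an unadjusted p under 0.05; edgeR and DESeq2 called 0 as well. Among all features limma called 0 of 14985 (0%), edgeR and DESeq2 called 0%, and 1.79% had an unadjusted p under 0.05 by limma. Estimates ran from 0.09 for Slc1a2 to 0.68 for Gfap (SE 0.57), with a median of 0.33 against 0.03 over all features. Stimulated control rats 1, 2 and 3 had 2367, 1242 and 3262 CPM of Gfap, against 1806, 1459 and 877 CPM in control rats, so stimulated control rat 2 lay within the control range. Without stimulated control rat 3 the Vim estimate of 0.44 turned to -0.061.

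**Figure D3:**
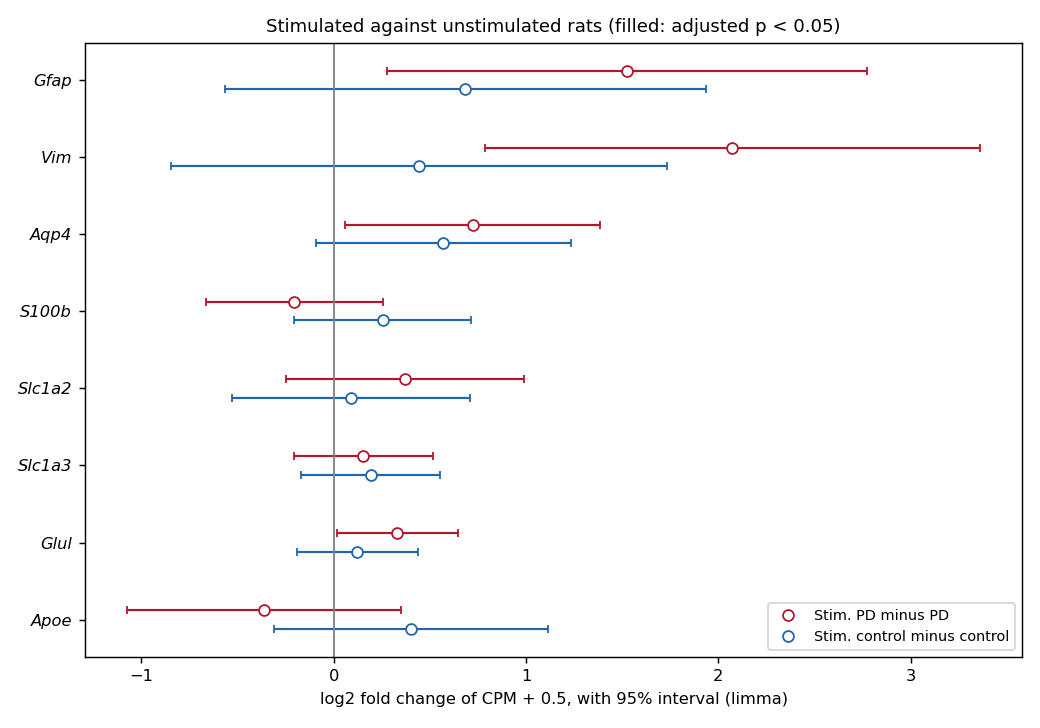
Log2 fold change with its 95% interval (x axis) of each gene (y axis) in stimulated PD against PD rats and in stimulated control against control rats; a filled point would mark an adjusted p under 0.05. No point is filled; in lesioned rats Vim and Gfap lie at 2.07 and 1.52, and Apoe and S100b lie left of 0.

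Whether stimulated and unstimulated rats differed by unlike amounts in PD and in control rats was tested as the interaction. The limit on telling stimulation from implantation holds here too. For 0 of 8 genes did it pass by limma, edgeR or DESeq2, and 0 of 8 had an unadjusted p under 0.05 by limma. Over all features limma called 0 of 14985 (0%), edgeR 0% and DESeq2 0.2%, and 4.13% had an unadjusted p under 0.05 by limma. The estimates were 1.63 for Vim (SE 0.83), 0.84 for Gfap (SE 0.81), -0.76 for Apoe (SE 0.46) and -0.46 for S100b (SE 0.30), each with a limma adjusted p of 0.834. For Glul, Slc1a2, Aqp4 and Slc1a3 they were 0.21, 0.28, 0.15 and -0.04. The interval for Vim ran from -0.19 to 3.45. An equal difference in both kinds of rat and a much larger one in PD rats both lie inside it.

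Stimulated PD rats were also set against unstimulated controls. By limma 0 of 8 genes were called and 1 had an unadjusted p under 0.05, edgeR called 0 and DESeq2 called 1, while limma called 0.0334% of all features and 20.9% had an unadjusted p under 0.05. The gene was Apoe, with 1563, 1262 and 1065 CPM in stimulated PD rats, against 2979, 2764 and 2012 CPM in control rats. Each stimulated PD rat was below each control (log2 fold change -0.99, SE 0.33, limma adjusted p = 0.141), and the difference passed by DESeq2 (adjusted p = 0.0434) and with only these 2 groups fitted (limma adjusted p = 0.0181), where 7.23% and 19.1% of all features were called. S100b did not overlap either (-0.28, limma adjusted p = 0.458). Such a lack of overlap was found for 25.9% of all features in this direction. Apoe passed in 2 of 12 other settings here and in 0 of 12 fits with a library left out. Vim was at -1.02 (SE 0.59, limma adjusted p = 0.334) and Gfap at -0.29 (SE 0.57, limma adjusted p = 0.794), where the Gfap interval ran from -1.54 to 0.96 and edgeR gave 0.037. The remaining genes were at -0.09 (Slc1a2), -0.09 (Glul), 0.04 (Slc1a3) and 0.15 (Aqp4).

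**Figure D4:**
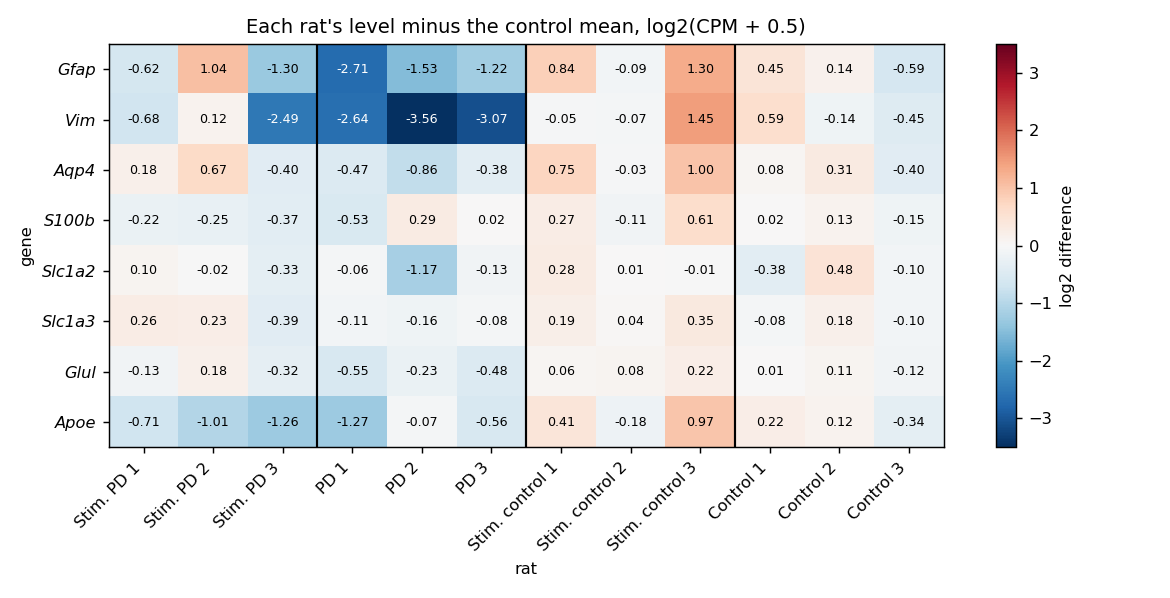
Each rat's log2(CPM + 0.5) minus the mean of the control rats, with genes in rows and rats in columns; blue is below and red above the control mean. The 3 PD rats are blue for Vim, from -3.56 to -2.64, and stimulated PD rat 3, at -2.49, resembles them more than its companions, at -0.68 and 0.12.

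Some rats were low or high for nearly all of the 8 genes, as given above for rat 3 of the stimulated PD, stimulated control and control groups, and stimulated control rat 2 was the lowest of its group for 6. Other rats were low for some genes and high for others. PD rat 1 had the lowest Gfap of its group, at -2.71 from the control mean on the log2 scale, and also its lowest Apoe, S100b and Glul. PD rat 2 had instead the lowest Vim, Aqp4, Slc1a2 and Slc1a3, with Slc1a2 at -1.17, and the highest Apoe, S100b and Glul. Among stimulated PD rats, rat 2 was highest for Gfap, Vim, Aqp4 and Glul, and rat 1 for S100b, Slc1a2, Slc1a3 and Apoe. After each group's mean was removed, S100b and Apoe varied most alike over the 12 libraries, with Pearson's r = 0.96 (exact permutation within groups, p = 0.00231) and Spearman's rho = 0.90 (exact permutation p = 0.0054). Adjusted over the 28 pairs of genes these were 0.0648 and 0.151, and r was 0.93 without the 2 libraries farthest from the median of S100b. Of the 28 pairs, 24 had a positive r and 0 passed after adjustment (exact permutation test), among them Gfap with Vim, at r = 0.65 and rho = 0.64 (exact permutation p = 0.116 and 0.0965, adjusted 0.216 and 0.208; r = 0.30 without the 2 farthest libraries).

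Ratios of 2 genes within a library do not depend on how libraries were scaled. Of 6 ratios, Gfap to Aqp4 had the smallest p between lesioned and unlesioned rats. It was 0.538, 1.60 and 1.42 in PD rats, against 3.28, 2.25 and 2.22 in control rats, with no overlap. Stimulated PD rats had 1.46, 3.29 and 1.36, against 2.71, 2.44 and 3.14 in stimulated control rats, where rat 2 of the stimulated PD group exceeded every stimulated control. On the log2 scale the lesioned rats were lower by 0.90 (difference -0.90, exact permutation test within stimulated and unstimulated rats, two-sided, p = 0.02, adjusted over the 6 ratios 0.12). The smallest p this design allows is 0.005. Without stimulated PD rat 2 the difference was -1.11 and passed (exact permutation test, adjusted p = 0.03). That was the only pass, 1 of 12 fits with a library left out, where the adjusted p of this test reached 0.33.

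The estimated fall over both pairs was larger for Vim than for Gfap, but a difference between them did not pass. The ratio of Gfap to Vim had a higher estimate in lesioned rats (log2 difference 0.89, exact permutation p = 0.06, adjusted 0.18). It was 4.54, 19.8 and 17.3 in PD rats, against 4.29, 5.76 and 4.29 in control rats; PD rat 1, with its low Gfap, lay within the control range. Apoe to Slc1a2 differed by -0.70 (exact permutation p = 0.13, adjusted 0.26). Its values were 2.13, 1.87 and 1.95 in stimulated PD rats, against 4.09, 3.25 and 7.34 in stimulated control rats, and 1.61, 7.99 and 2.76 in PD rats, against 5.65, 2.88 and 3.14 in control rats. The stimulated pair did not overlap, and PD rat 2 was the highest of its pair. The transporters' ratio, Slc1a2 to Slc1a3, differed by -0.18, S100b to Aqp4 by 0.19 and Glul to Slc1a2 by 0.00022 (exact permutation p = 0.47, 0.46 and 1).

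**Figure D5:**
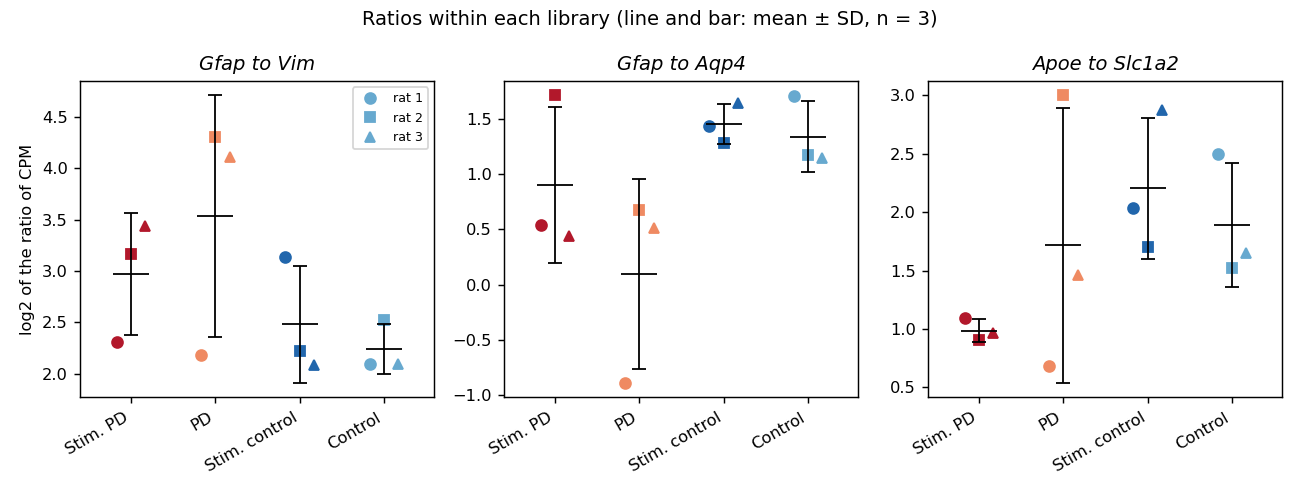
Log2 ratio of CPM (y axis) of Gfap to Vim, Gfap to Aqp4 and Apoe to Slc1a2 in each rat, by group along the x axis, with a marker shape for the rat number; the line and bar give the mean ± SD of 3 rats. Gfap to Aqp4 averages 0.10 in PD rats and 1.34 in controls, and Apoe to Slc1a2 averages 0.99 in stimulated PD rats and 2.20 in stimulated controls.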

How the data were processed

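Libraries of 12 motor cortex samples were made with a stranded mRNA kit, per the labels' protocols. Per the submitters' processing notes, reads went through Trim Galore, STAR and featureCounts (no version given), on build mRatBN7.2. Which annotation release, strand option and normalization software were used is not stated. The deposited values are CPM, as computed by the authors, for 16534 features, none with a 0. All 12 columns were matched to samples by their short description, and 0 were left over. Within each column the CPM were whole multiples of 1 step, which gave whole reads for 100% of values within 0.001 read and the library totals; 0.019% to 0.13% of a library lay outside the table. These reads served edgeR (4.0.16) and DESeq2 (1.42.0) as alternatives.

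The main test was limma (3.58.1, R 4.3.3) of log2(CPM + 0.5) values in a model of group means over the 12 libraries, with a trended prior variance, for 14985 features that averaged 0.5 CPM or more, after a test of the code on simulated data. In that test a limit on the share of false calls was set for limma and edgeR but not for DESeq2. The pooled spread of 4 groups gave 8 residual degrees of freedom. Ratios and correlations used exact permutation tests (Python 3.11.15); intervals are 95%, and leave the multiple tests uncorrected. The correlations were added after seeing the data. Nothing in the labels says that rat numbers mark a shared litter or day. The numbers used are those of the sample titles. They differ from the numbers in the short descriptions for the PD rats and for stimulated PD rat 3. Deviations of same-numbered rats correlated above 0.1 in 3 of 18 pairs, and r ran from -0.46 to 0.362.

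The 8 genes and all comparisons were chosen with earlier results of these data known. The genes named are all 8 of them. A further 17 lists of 166 genes, and the features most like each gene, were to be named only with an annotated symbol; 0 of 16534 identifiers had one, so these are not analysed here.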

Additional observations from a re-analysis of the deposited data

How the results depend on the processing

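Of 1328 recomputed values of single genes, 1253 kept their direction and their side of the threshold, 27 lost a call, 15 gained one and 33 changed sign, 0 of which had been called. Vim and Apoe over both lesion pairs passed under each of the 23 alternatives run.

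The number of genes called over both pairs was 4 as reported and 2 by edgeR, and 2 to 4 with a library left out. Of all features, 23% were called as reported, 21.8% by edgeR and 12.7% to 30.8% with a library left out. The number of genes called was 2 for PD against control with only these groups fitted, with 4.12% of all features called. With a library left out it was 0 to 2, with 0.0267% to 6.51% of all features called. For stimulated PD against stimulated control it was 1 with a filter at 5 CPM, quantile normalization, DESeq2 or only these groups fitted (0 to 1 left out), where 2.49%, 4.94%, 13.5% and 14.4% of all features were called, against 1.45%. It was 1 by DESeq2 for stimulated PD against PD (0 to 1 left out), with 6.05% of all features called, and 1 for stimulated PD against control by DESeq2 or with only these groups fitted, with 7.23% and 19.1%. With a library left out, 0.0133% to 15.1% of all features were called for stimulated PD against stimulated control. For stimulated PD against PD the range was 0% to 19.6%.

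Signs turned as follows. In PD against control, S100b was at 0.073, 0.080, 0.11 and 0.12 and Slc1a3 at 0.031, 0.038, 0.025 and 0.032 with TMM factors, median-of-ratios factors, edgeR and DESeq2, and S100b ran from -0.26 to 0.15 with a library left out. Gfap in stimulated PD against control was at 0.037 by edgeR and 0.036 by DESeq2, and from -0.96 to 0.21 with a library left out. In that comparison Aqp4 ran from -0.11 to 0.43, Slc1a2 from -0.28 to 0.15, Slc1a3 from -0.077 to 0.25 and Glul from -0.22 to 0.024. Slc1a3 ran from -0.27 to 0.057 in stimulated PD against stimulated control. In stimulated control against control, Vim ran from -0.061 to 0.74 and Slc1a2 from -0.10 to 0.33. The interaction ran from -0.15 to 0.43 for Aqp4, -0.082 to 0.47 for Slc1a2 and -0.15 to 0.17 for Slc1a3. The ratio of Glul to Slc1a2 ran from -0.23 to 0.13. The cause was not tested. The ratio of Gfap to Aqp4 stayed negative, from -1.11 to -0.65, with a library left out.

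With the rat number of the sample titles as a replicate block, 3 genes were called over both pairs, since Glul was at an adjusted p of 0.0523 by limma. The block changed no other call. It rests on title numbers, which differ from the short descriptions for the PD rats and for stimulated PD rat 3. Over all features, the count called over both pairs was 3451 as reported and 2707 with the block. Counting error was at most 2.82% of a value, while the coefficient of variation between the 3 rats of a group ran from 2.94% to 85.8%. Library scaling also moved some results. Glul over both pairs had a limma adjusted p of 0.0431 as deposited and 0.215 with TMM factors.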
